A study of Mus musculus with 9 samples.

Results

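The genes described here are 39 genes of the proximal tubule that take filtered solutes and protein back into the body, or that hold the apparatus for this in place. They were chosen by gene symbol from a list of solute carriers, endocytic receptors, brush border enzymes and a nuclear regulator. All 39 were found, once each, among the 55385 genes of the table, and 25 of the 39 are solute carriers. Messenger RNA was sequenced from whole kidney of Control C57BL/6 mice and of mice with hyperuricemic nephropathy (HN), a kidney disease of raised uric acid, with and without pectolinarigenin, a plant flavonoid (PEC). There were 9 libraries, 3 per group, named below by group and replicate number. The Control libraries were replicates 2, 4 and 5, labelled as control disease state and untreated. The HN libraries were replicates 4, 8 and 12, labelled with the disease state HN and untreated by the compound. The PEC libraries were replicates 1, 2 and 3, labelled with the disease state HN and treated with pectolinarigenin. By the methods of the study the mice were male, of the substrain C57BL/6J and 8 to 10 weeks old, the disease was made with adenine at 0.16 g/kg and potassium oxonate at 2.4 g/kg fed every other day over 4 weeks in both the HN and the PEC group, and the animal experiment had 8 mice per group. The pectolinarigenin was given daily by mouth, and the dose named in the description of the sequenced group was 25 mg/kg, which the sample labels do not state. The titles of the Control samples also carry the words HN mice, while their disease state is control. The labels do not state that each library came from a separate mouse, so the p-values measure the spread between these libraries.

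The proximal tubule is the first segment of the nephron after the glomerulus, and it recovers most of the filtered glucose, phosphate, bicarbonate, amino acids and small proteins. Its cells carry a dense brush border of microvilli facing the urine, where sodium-coupled carriers draw solutes in, while carriers on the blood side let them out. Megalin and cubilin, a pair of very large receptors at the base of the microvilli, take up filtered protein by endocytosis, and peptidases anchored in the brush border split peptides ahead of uptake. Hnf4a, a nuclear receptor, is known as a regulator of the mature state of these cells. In gene ontology annotation, which overlaps with the roles the genes were chosen by, 17 of the 39 genes (43.6%) were listed under brush border membrane, against 0.319% of all annotated genes, and 19 (48.7%) under apical plasma membrane, against 1.58%. In bulk kidney, fewer cells of a type and less RNA per cell cannot be told apart.

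The 9 libraries held between 57714111 and 81069646 counts on genes, with a median of 74397038, and PEC replicate 3 had the lowest total. Every gene of the list passed the filter on low counts, as did 21392 genes in all. Some libraries stood apart from the rest. The share of counts on mitochondrially encoded genes was 13.3, 12.9 and 16.3% across Control, 6.01, 6.22 and 6.34% across HN, and 13.0, 10.3 and 13.7% across PEC, so each HN library lay below every other library. The share on ribosomal RNA loci was 0.296, 1.72 and 0.302% in PEC and at most 0.00419% in any other library. In a principal component analysis of all genes, the first component (40.5% of the variance) placed the Control libraries apart from the other 6, and the second (27.1%) placed HN, at 74.6 to 85.7, opposite PEC, at -90.9 to -79.8. The choice of scaling bears on every fold change below. FPKM (fragments per kilobase of gene, scaled by sequencing depth) divides by library totals, while the edgeR fit scales libraries by TMM, which sets the typical gene to no change. Relative to library totals, TMM moved HN against Control by -0.56, PEC against HN by 0.20 and PEC relative to Control by -0.36 on the log2 scale. Fold changes below come from the edgeR fit and are relative to those shifts, so they differ from the ratios of the FPKM printed beside them. The median log2 fold change of all genes tested with TMM was -0.0008 in HN against Control, -0.02 in PEC against HN and 0.04 in PEC relative to Control, and with library totals 0.56, -0.21 and 0.40. The place of these library differences in the results was not tested.

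Transcripts of the 39 genes were abundant. Their median level, as mean FPKM over the 9 libraries, was 32.6, against 2.29 for all genes tested, and 93.5% of tested genes lay below the median of the list. Even the least abundant of them, Slc34a3, a phosphate carrier at a mean of 8.86 FPKM, lay above 77.4% of tested genes. In Control alone Slc15a2 (11.2) and Slc5a1 (15.3) had lower means than Slc34a3 (16.8 FPKM), which was lowest in HN (3.65) and in PEC (6.15). Slc27a2, which takes up and activates long-chain fatty acids, was the most abundant, with a mean of 583 FPKM over the 9 libraries. Miox, the enzyme that opens the inositol ring in the kidney, followed at 545 FPKM, and Slc34a1, the main phosphate carrier of the brush border, at 449 FPKM. Mep1a, a metalloprotease subunit of the brush border, had 297 FPKM, and Slc3a1, a subunit of the cystine carrier, had 187 FPKM. Over the 9 libraries these 5 genes made up 58.5% of the summed FPKM of the 39, and the ratio of the highest to the lowest mean was 65.8. Within groups the order differed. In PEC the means of Pdzk1 (165.7) and Ggt1 (164.6) lay above that of Slc3a1 (142 FPKM), and in HN Slc34a1 (211.3) and Miox (211.1 FPKM) were level. Between neighbours in this order the spread counts. The PEC libraries alone ran from 527 to 712 FPKM for Slc27a2 and from 473 to 819 FPKM for Miox, so the order of these 2 genes is not separated by their spread there, where the mean of Miox (694.8 FPKM) lay above that of Slc27a2 (612.5). The longest annotated transcripts of the 39 genes had a median of 3524 bases and a GC content of 50.9%, against 3279 bases and 49.9% for the protein-coding genes tested. A plot of FPKM by library shows the levels of 17 of these genes.

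**Figure D1:**
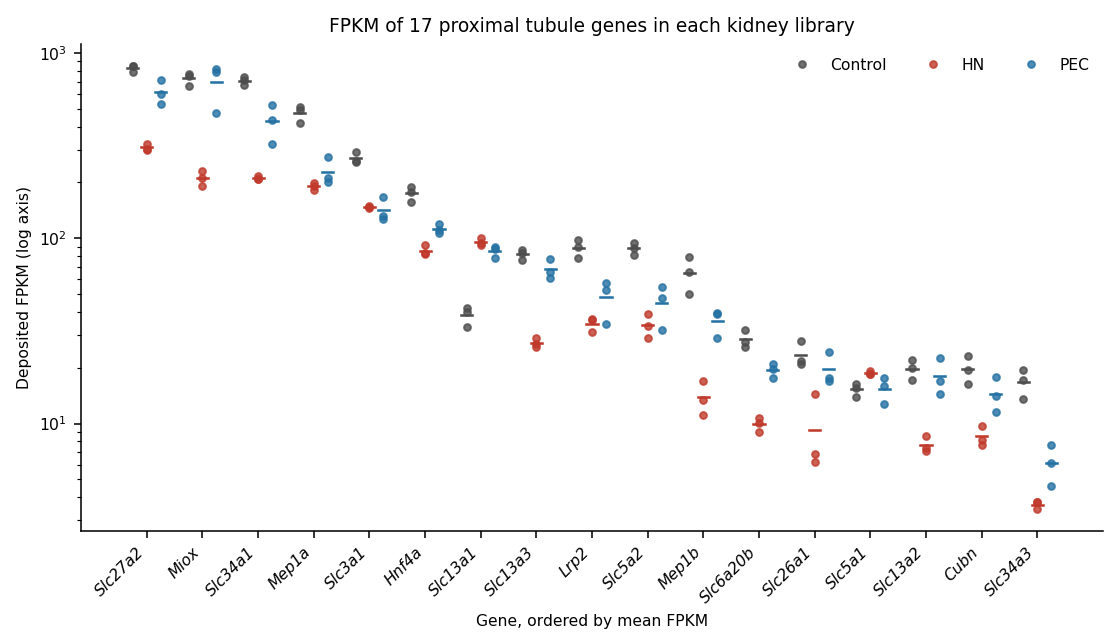
FPKM of 17 proximal tubule genes in each of the 9 libraries on a log axis, with a dash at the mean of each group. FPKM divides by library totals, on which scale Slc5a1 stood higher in HN than in Control, while its TMM-scaled change was below 0.

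Hnf4a fell in HN and rose in PEC together with many of the 39 genes, and the promoters of the list were searched for short words known from binding sites of HNF1 and HNF4A. RefSeq promoters on GRCm38.p6, running from 250 bases before to 50 after each start, were matched for 32 of the 39 genes, 47 promoters in all. Mep1b, Slc5a2, Slc5a12, Slc23a1, Slc6a18, Folr1 and Slc13a1 had no promoter in the table. The words were GTTAATNAT for HNF1 and CAAAGTCCA and CAAAGGTCA for HNF4A, each read on both strands. CAAAGTCCA was present in 2 of the 47 promoters (4.26%), against 0.475% of all 32851 promoters. The matches lay in Slc3a1, from 39 to 31 bases before the start, and in Pdzk1, a scaffold of the brush border, from base 14 to 22 after it. GTTAATNAT was found in 0 of the 47 and in 0.801% of all promoters, and CAAAGGTCA in 0 of the 47 and in 0.478% of all. A match describes letters in a window and does not show a bound site, and a missing match says only that these letters are not in this window. Below are the 100 bases upstream of Slc3a1, at chr17:85028247-85028346 on the plus strand, with the word CAAAGTCCA in capitals. The 100 bases upstream are also given for 3 genes without a match. These are Miox, at chr15:89334298-89334397 on the plus strand, Slc13a3, at chr2:165473231-165473330 on the minus strand, and Slc5a8, at chr10:88885892-88885991 on the plus strand.
Slc3a1: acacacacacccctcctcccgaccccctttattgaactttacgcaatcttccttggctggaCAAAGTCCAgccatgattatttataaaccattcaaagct
Miox: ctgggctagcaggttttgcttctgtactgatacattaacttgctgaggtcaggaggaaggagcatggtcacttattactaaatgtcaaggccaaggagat
Slc13a3: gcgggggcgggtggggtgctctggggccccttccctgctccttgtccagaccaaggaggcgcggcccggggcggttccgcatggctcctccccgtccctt
Slc5a8: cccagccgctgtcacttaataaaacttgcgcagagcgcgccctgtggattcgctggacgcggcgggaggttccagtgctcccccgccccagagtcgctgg
The stretches of Slc3a1 and Slc5a8 end at the RefSeq start used in the search, and those of Miox and Slc13a3 at the start given in the table, 75 and 33 bases before the RefSeq start. All are written 5′ to 3′ on the strand of the gene, and the GC content was 45% for Slc3a1 and Miox, 75% for Slc13a3 and 66% for Slc5a8.

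Kidneys with HN carried less RNA of most of these 39 genes than Control kidneys. The comparison asks how the disease model affects these genes. Among the genes that fell were 2 of the 3 glucose carriers and the carriers for phosphate, bicarbonate and amino acids, the endocytic receptors and the brush border enzymes of the list. The median log2 fold change of the 39 genes was -1.56, a fold of 2.95 lower, and values ran from -2.77 (Mep1b, a meprin subunit) to 0.78 (Slc13a1, a sulfate carrier). A gene counts as called when its fold change reached 1.5 and its edgeR adjusted p was 0.05 or less. By that rule 36 of the 39 genes (92.3%) were called lower, against 14.7% of all genes tested, and 1 was called higher, against 17.7%. The gene that rose was Slc13a1, and the 2 genes not called were Slc5a1, a glucose carrier, and Slc5a12, a lactate carrier. In FPKM, 36 of the 39 had every HN library below every Control library, as did 10.8% of all genes tested, and 2 had every HN library above, as did 52.2%. In FPKM scaled by TMM these were 38 and 1, against 28.3 and 27.3%. With library totals in place of TMM, 30 of the 39 were called lower, against 6.01% of all genes tested, and 1 higher, against 36.0%. With GC content and length removed, 37 were lower, against 22.5%, and 1 higher, against 15.5%. The 6 genes that lost the call with library totals were Slc7a7, Slc7a8, Slc15a2, Amn, Dab2 and Vil1. Of all genes called in this comparison, 54.5% were higher in HN with TMM, 85.7% with library totals, and 40.8% with GC content and length removed. The last setting is a limma fit on log2 CPM, and the same fit with nothing removed, added after the data were seen, gave 55.7%.

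Kidneys of PEC mice carried more RNA of a good part of these genes than HN kidneys, in the comparison that asks about the compound within the disease model. The inositol enzyme Miox, the meprin subunit Mep1b and the dicarboxylate carriers Slc13a3 and Slc13a2 rose furthest. The median log2 fold change of the 39 genes was 0.65, a fold of 1.57, and values ran from -1.08 (Slc5a12, not called) to 1.94 (Miox). There were 22 genes called higher (56.4%), against 13.4% of all genes tested, and 1 called lower, against 15.3%. The gene that fell was Slc4a4, which lets bicarbonate out to the blood side, and 16 genes were not called. In FPKM, 23 of the 39 had every PEC library above every HN library, against 18.0% of all genes tested, and 7 had every PEC library below, against 38.1%. Scaled by TMM, 26 lay above, against 25.5%, and 2 below, against 29.7%. Library totals gave 14 genes called higher, against 9.12% of all genes tested, and 3 called lower, against 21.6%. With GC content and length removed, limma called 21 higher, against 13.5%, and 0 lower, against 11.4%, where the same fit with nothing removed, DESeq2 and an unadjusted p in edgeR each gave 2 lower. Of all genes called in this comparison, 46.8% were higher in PEC with TMM, 29.6% with library totals, and 54.1% with GC content and length removed, against 46.3% in the same limma fit with nothing removed. Across all genes the log2 fold change of this comparison had a Spearman rho of -0.33 with transcript length and 0.17 with GC content, and genes are not independent replicates.

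Against Control, PEC kidneys still carried less RNA of most of these genes. The lactate carriers Slc5a12 and Slc5a8 and the bicarbonate carrier Slc4a4 lay lowest, while Slc13a1 again stood higher. The median log2 fold change was -0.87, a fold of 1.83 lower, and values ran from -2.21 (Slc5a12) to 0.83 (Slc13a1). There were 26 genes called lower (66.7%), against 17.4% of all genes tested, 1 called higher, against 18.9%, and 12 not called. In FPKM, 24 of the 39 had every PEC library below every Control library, against 17.3% of all genes tested, and 1 had every PEC library above, against 40.9%. Scaled by TMM, 36 lay below, against 29.6%, and 1 above, against 27.5%. The 12 genes below Control on that scale alone were Cubn, Ggt1, Miox, Slc13a2, Slc13a3, Slc15a2, Slc1a1, Slc26a1, Slc6a18, Slc7a7, Slc7a8 and Vil1. Likewise Lrp2, Slc23a1 and Slc2a2 lay above HN in PEC only when scaled by TMM, Slc13a1, Slc5a1, Slc5a12, Slc9a3 and Dab2 lay below HN in PEC only in FPKM, and in HN Dab2 and Slc5a1 lay below Control only when scaled by TMM. Orders of libraries given with FPKM below are those of FPKM. With library totals, 18 were called lower, against 9.16% of all genes tested, and 1 higher, against 30.0%, and with GC content and length removed 33 were lower, against 21.7%, and 1 higher, against 15.7%. Of all genes called in this comparison, 52.1% were higher in PEC with TMM, 76.6% with library totals, and 41.9% with GC content and length removed, against 52.7% in the same limma fit with nothing removed. The 3 comparisons share libraries, so their values are given side by side and no relation between them is computed. Histograms of the fold changes set the 39 genes beside all genes, and a plot by role shows each gene with its standard error.

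**Figure D2:**
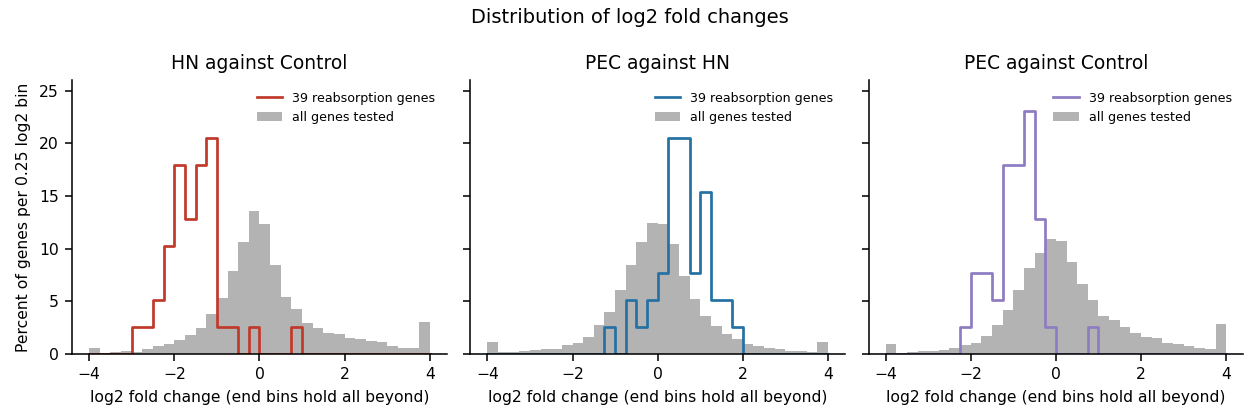
Share of the 39 genes and of all 21392 genes tested in bins of log2 fold change (edgeR, TMM) for the 3 comparisons, where the end bins hold all values beyond them. With library totals in place of TMM the median of all genes moved to 0.56, -0.21 and 0.40.

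**Figure D3:**
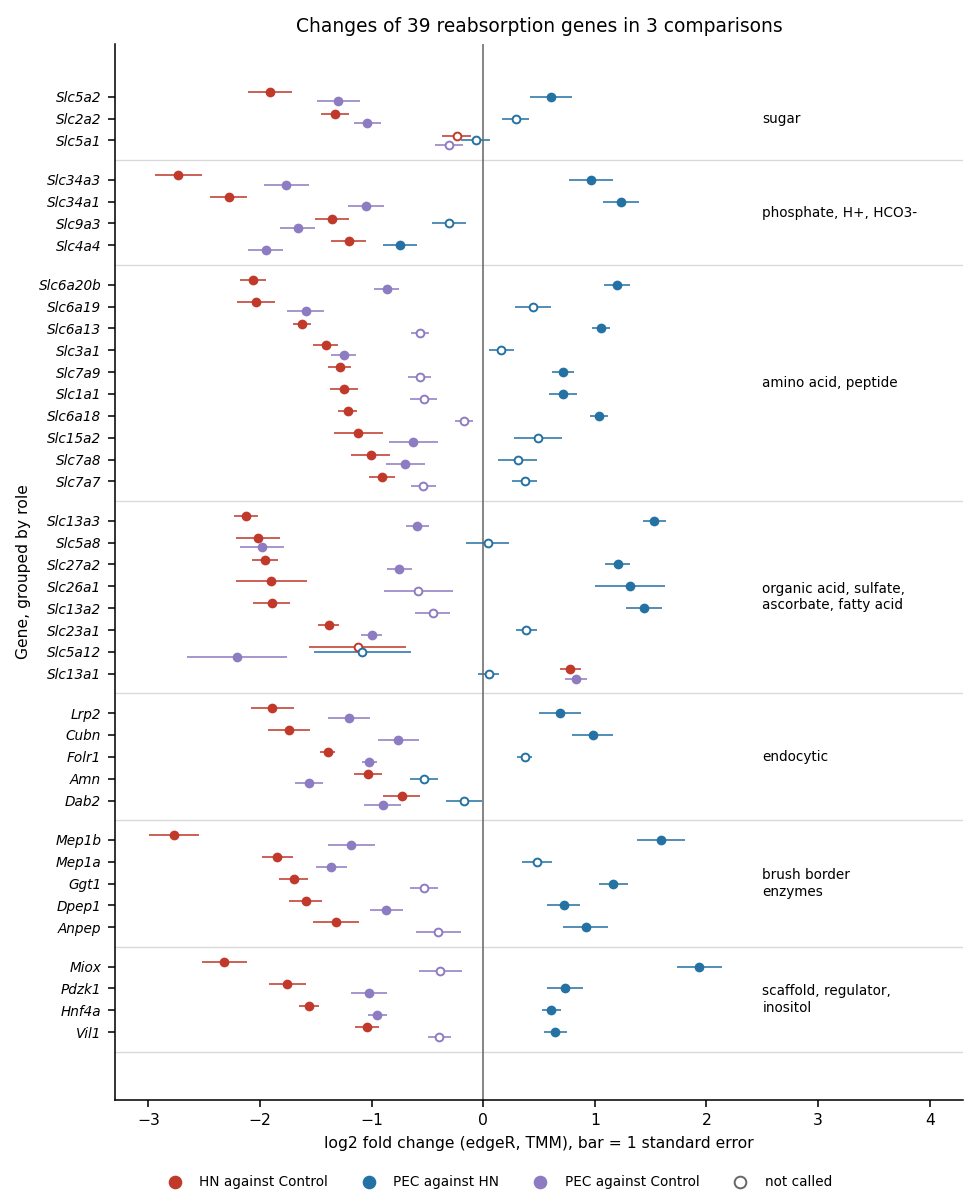
Log2 fold change of each of the 39 genes by role in the 3 comparisons, with bars of 1 standard error and open symbols for genes not called. Under library totals the sign turned for Slc5a1 in HN against Control and in PEC against Control, for Slc3a1, Slc5a8 and Slc13a1 in PEC against HN, and for Slc6a18 in PEC against Control, and with GC content and length removed for Slc5a1, Dab2 and Folr1 in PEC against HN, all uncalled.

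Filtered glucose is taken up in 2 steps: sodium-glucose cotransporters bring it in at the brush border, Slc5a2 in the early and Slc5a1 in the late segment, and Slc2a2 releases it to the blood side. Of these 3 genes, 2 fell in HN, 1 rose in PEC against HN, and 2 were lower in PEC than in Control. Slc5a2 had 94.0, 88.6 and 81.6 FPKM across Control, 38.9, 29.0 and 33.6 across HN, and 47.5, 54.3 and 31.9 across PEC. Every Control library lay above every other library, and PEC replicate 3 fell among the HN libraries while the other 2 PEC libraries lay above them. For Slc5a2 the log2 fold change was -1.91 (standard error 0.196, edgeR adjusted p = 6.52e-05) in HN against Control, 0.61 (standard error 0.19, edgeR adjusted p = 0.0313) in PEC against HN, and -1.30 (standard error 0.192, edgeR adjusted p = 0.000573) in PEC against Control. The rise in PEC stood just past the fold threshold and was not called without HN replicate 8 (log2 fold change 0.49), HN replicate 12 (0.58), PEC replicate 1 (0.56) or PEC replicate 2 (0.44), nor with library totals (0.41) or with GC content and length removed (0.36), without a filter on low counts (0.58) or with only the groups compared (0.61). Slc5a1 had 13.9, 15.5 and 16.4 FPKM across Control, 19.3, 18.4 and 18.6 across HN, and 15.9, 17.5 and 12.8 across PEC. On this scale the HN libraries lay above all others, and PEC and Control overlapped. The TMM-scaled change of Slc5a1 was nevertheless -0.24 (standard error 0.127, edgeR adjusted p = 0.169) in HN against Control and turned to 0.32 with library totals, and it was not called either way. In PEC against Control Slc5a1 had a log2 fold change of -0.31 (edgeR adjusted p = 0.0766), which turned to 0.05 with library totals. In PEC against HN it had a log2 fold change of -0.07 (edgeR adjusted p = 0.707), which turned to 0.08 with GC content and length removed and to 0.07 without PEC replicate 3. Slc2a2 averaged 24.8 ± 2.52 FPKM across Control, 14.3 ± 0.171 across HN and 15.1 ± 2.03 across PEC (SD, n = 3), and it fell in HN (log2 fold change -1.33, edgeR adjusted p = 3.77e-05) and was lower in PEC than in Control (log2 fold change -1.04, edgeR adjusted p = 0.000162). Slc2a2 was not called in PEC against HN, with a log2 fold change of 0.29 (edgeR adjusted p = 0.0911), but was called higher with GC content and length removed (0.93), where Slc5a2 was not, so which of the 2 genes is called there depends on that setting.

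Phosphate enters through the sodium-phosphate cotransporters Slc34a1 and Slc34a3, while the sodium-proton exchanger Slc9a3 at the brush border and the sodium-bicarbonate cotransporter Slc4a4 on the blood side work together to recover bicarbonate. All 4 fell in HN and were lower in PEC than in Control, but in PEC against HN the phosphate pair rose, Slc4a4 fell and Slc9a3 was not called. Slc34a1 had 668, 717 and 739.6 FPKM across Control, 209, 209 and 216 across HN, and 437, 522 and 323 across PEC. The 3 groups did not overlap, with HN lowest and PEC between HN and Control. The log2 fold change of Slc34a1 was -2.28 (standard error 0.166, edgeR adjusted p = 1.02e-05) in HN against Control, 1.23 (standard error 0.161, edgeR adjusted p = 0.000436) in PEC against HN, and -1.05 (standard error 0.16, edgeR adjusted p = 0.000686) in PEC against Control. Slc34a3 had 13.6, 17.3 and 19.5 FPKM across Control, 3.75, 3.46 and 3.75 across HN, and 7.70, 6.14 and 4.61 across PEC. Again the groups stood in the order HN, PEC, Control without overlap, and PEC replicate 3 was the closest to HN. For Slc34a3 the change was -2.73 (standard error 0.21, edgeR adjusted p = 1.34e-05) in HN against Control, 0.97 (standard error 0.2, edgeR adjusted p = 0.00487) in PEC against HN, and -1.77 (standard error 0.202, edgeR adjusted p = 0.000133) in PEC against Control. Slc4a4 took another course, with means of 76.0 ± 5.38 FPKM across Control, 47.6 ± 2.56 across HN and 24.5 ± 5.62 across PEC (SD, n = 3), and no overlap between the groups. It fell in HN (log2 fold change -1.21, edgeR adjusted p = 0.000247) and was lower again in PEC than in HN (log2 fold change -0.74, edgeR adjusted p = 0.00478). That second fall was not called without PEC replicate 3 (-0.58) or with GC content and length removed (-0.22). Slc9a3 averaged 20.7 ± 1.61, 11.7 ± 0.768 and 8.13 ± 1.84 FPKM in the same order, with a log2 fold change of -0.31 (edgeR adjusted p = 0.148) in PEC against HN.

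Amino acids and small peptides are recovered by the largest group, 10 carriers, of which Slc3a1 with Slc7a9 forms the cystine and basic amino acid carrier, and Slc6a19 takes up neutral amino acids. All 10 fell in HN, with a median log2 fold change of -1.27, and 5 rose in PEC against HN, where the median was 0.60. With library totals 3 of the 10, Slc7a7, Slc7a8 and Slc15a2, were not called in HN against Control. In PEC against Control 5 of the 10 were called lower. Slc3a1 had 258, 293 and 262 FPKM across Control, 147, 145 and 150.2 across HN, and 132, 167 and 127 across PEC. Both disease groups lay below Control and overlapped with each other. For Slc3a1 the log2 fold change was -1.41 (standard error 0.113, edgeR adjusted p = 1.65e-05) in HN against Control and -1.25 (standard error 0.112, edgeR adjusted p = 3.93e-05) in PEC against Control. In PEC against HN it was 0.16 (standard error 0.111, edgeR adjusted p = 0.284), which turned to -0.04 with library totals. Its partner Slc7a9 rose in PEC against HN (log2 fold change 0.71, edgeR adjusted p = 0.000704), from 20.3 ± 1.16 to 28.6 ± 3.57 FPKM (SD, n = 3), a call lost with library totals (0.51) and with GC content and length removed (0.495). The difference between the 2 partners was not tested. Slc6a20b, a member of the Slc6 carrier family, had 27.6, 25.8 and 31.9 FPKM across Control, 8.95, 10.1 and 10.7 across HN, and 19.8, 20.99 and 17.7 across PEC. The groups did not overlap, and PEC lay between HN and Control. For Slc6a20b the change was -2.06 (standard error 0.119, edgeR adjusted p = 3.65e-06) in HN against Control, 1.20 (standard error 0.116, edgeR adjusted p = 0.000108) in PEC against HN, and -0.86 (standard error 0.115, edgeR adjusted p = 0.000313) in PEC against Control, where the call was lost with library totals (-0.50) and with GC content and length removed (-0.51).

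The other amino acid and peptide carriers followed several courses. Slc6a18, a carrier of glycine and neutral amino acids, averaged 85.0 ± 8.41 FPKM across Control, 52.9 ± 1.27 across HN and 93.7 ± 5.05 across PEC (SD, n = 3). It fell in HN (log2 fold change -1.22, edgeR adjusted p = 7.23e-06), rose in PEC against HN (log2 fold change 1.04, edgeR adjusted p = 4.44e-05), and had a log2 fold change of -0.17 (edgeR adjusted p = 0.106) in PEC against Control, which turned to 0.18 with library totals. Slc6a13, which carries GABA and related compounds, went from 36.7 ± 1.59 in Control to 17.3 ± 0.405 in HN and 30.8 ± 2.29 FPKM in PEC. Slc6a13 fell in HN (log2 fold change -1.62, edgeR adjusted p = 2.27e-06) and rose in PEC against HN (log2 fold change 1.05, edgeR adjusted p = 4.23e-05). Slc1a1, the carrier of glutamate and aspartate, also fell (log2 fold change -1.25, edgeR adjusted p = 5.34e-05) and rose (log2 fold change 0.72, edgeR adjusted p = 0.00188), the rise being lost with library totals (0.52). By contrast Slc6a19 fell in HN (log2 fold change -2.04, edgeR adjusted p = 1.92e-05) and was not called in PEC against HN (log2 fold change 0.45, edgeR adjusted p = 0.0553), except without PEC replicate 3, when it was called at 0.62. In PEC against Control Slc6a19 was lower (log2 fold change -1.59, edgeR adjusted p = 8.10e-05), with every PEC library below every Control library. Slc7a7 and Slc7a8, which pass amino acids out on the blood side, had the smallest falls of this group in HN, -0.91 and -1.01, neither called with library totals (-0.35 and -0.44), and were not called in PEC against HN. Slc7a8 was called lower in PEC against Control (log2 fold change -0.70, edgeR adjusted p = 0.0097), but not without Control replicate 5 (-0.47) or PEC replicate 3 (-0.57), nor with library totals (-0.33). Slc15a2, a carrier of di- and tripeptides, fell in HN (log2 fold change -1.12, edgeR adjusted p = 0.0029), but was not called with library totals (-0.57). In PEC against Control it was called lower (log2 fold change -0.63, edgeR adjusted p = 0.0407), a call lost without Control replicate 2 (-0.69), 4 (-0.54) or 5 (-0.65), HN replicate 8 (-0.63), or PEC replicate 1 (-0.42) or 3 (-0.66). That call was also lost with library totals (-0.27), with GC content and length removed (-0.55) and with only the groups compared (-0.60). Without PEC replicate 1 it was instead called higher in PEC against HN (0.70), as it was with GC content and length removed (0.83). Close to the fold threshold in PEC against Control stood 4 more of these carriers, each called lower when some single library was left out. These were Slc6a13 (-0.57, called without Control replicate 2 at -0.61, PEC replicate 1 at -0.60 or PEC replicate 2 at -0.60) and Slc7a7 (-0.54, called without Control replicate 2 at -0.66). The others were Slc7a9 (-0.57, called without Control replicate 2 at -0.59, Control replicate 5 at -0.61, PEC replicate 1 at -0.63 or PEC replicate 2 at -0.61) and Slc1a1 (-0.53, called without Control replicate 4 at -0.62 or PEC replicate 2 at -0.65). All 4 were also called lower with GC content and length removed: Slc6a13 (-1.07), Slc7a7 (-0.95), Slc7a9 (-0.96) and Slc1a1 (-0.68).

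Organic acids, sulfate, ascorbate and fatty acids are carried by 8 genes of the list, and this group held both the gene with the highest mean over the 9 libraries and the 1 gene of the list that rose in HN. In HN 6 of the 8 fell and 1 rose, and in PEC against HN 4 rose. Slc13a1, the sodium-sulfate cotransporter of the brush border, had 39.9, 42.2 and 33.4 FPKM across Control, 92.2, 100.5 and 94.2 across HN, and 87.3, 90.1 and 77.9 across PEC. Its HN and PEC libraries all lay above the Control libraries, and the PEC libraries lay below the HN libraries. For Slc13a1 the log2 fold change was 0.78 (standard error 0.0955, edgeR adjusted p = 0.000186) in HN against Control and 0.83 (standard error 0.0956, edgeR adjusted p = 0.000136) in PEC against Control. Between PEC and HN it was 0.05 (standard error 0.0949, edgeR adjusted p = 0.718), which turned to -0.15 with library totals. Slc26a1, which exchanges sulfate on the blood side, went the other way, with 21.8, 20.9 and 27.9 FPKM across Control, 6.20, 14.5 and 6.88 across HN, and 24.2, 17.1 and 17.6 across PEC. HN replicate 8 stood well above the other 2 HN libraries, yet every HN library lay below every Control and PEC library. The log2 fold change of Slc26a1 was -1.90 (standard error 0.317, edgeR adjusted p = 0.00118) in HN against Control, 1.31 (standard error 0.312, edgeR adjusted p = 0.00941) in PEC against HN, and -0.58 (standard error 0.308, edgeR adjusted p = 0.152) in PEC against Control, where it was not called, but was without HN replicate 8 (-0.59) or with GC content and length removed (-0.91).

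Citrate and other dicarboxylates are taken up by Slc13a2 at the brush border and by Slc13a3 from the blood side. Both fell in HN and rose in PEC against HN, among the 5 largest changes of the list there. Slc13a3 had 86.5, 83.2 and 76.5 FPKM across Control, 26.8, 29.1 and 25.8 across HN, and 65.6, 77.0 and 61.0 across PEC. HN lay far below both other groups, and PEC replicate 2 just passed the lowest Control library. For Slc13a3 the change was -2.12 (standard error 0.105, edgeR adjusted p = 2.08e-06) in HN against Control, 1.53 (standard error 0.103, edgeR adjusted p = 2.79e-05) in PEC against HN, and -0.59 (standard error 0.101, edgeR adjusted p = 0.00131) in PEC against Control. The last call was lost without Control replicate 2 (-0.56), PEC replicate 1 (-0.57) or PEC replicate 3 (-0.50), with DESeq2 (-0.57), RLE factors (-0.57), no mitochondrial or ribosomal genes (-0.57) or only the groups compared (-0.56), and with library totals (-0.23). Slc13a2 had 22.1, 19.9 and 17.2 FPKM across Control, 7.13, 7.40 and 8.52 across HN, and 17, 22.5 and 14.4 across PEC. PEC and Control overlapped, and HN lay below both. For Slc13a2 the change was -1.90 (standard error 0.164, edgeR adjusted p = 2.47e-05) in HN against Control, 1.44 (standard error 0.162, edgeR adjusted p = 0.000209) in PEC against HN, and -0.45 (standard error 0.159, edgeR adjusted p = 0.0425) in PEC against Control, where it was not called, but was without PEC replicate 2 (-0.65) or with GC content and length removed (-0.97). Slc27a2, the fatty acid uptake and activation protein, had 847, 850.1 and 785 FPKM across Control, 299, 305 and 324 across HN, and 599, 712 and 527 across PEC. The groups were separate, in the order HN, PEC, Control. For Slc27a2 the change was -1.95 (standard error 0.118, edgeR adjusted p = 4.34e-06) in HN against Control, 1.20 (standard error 0.115, edgeR adjusted p = 0.000102) in PEC against HN, and -0.75 (standard error 0.114, edgeR adjusted p = 0.000677) in PEC against Control, the last not called with library totals (-0.39).

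The lactate carriers Slc5a8 and Slc5a12 were not called higher in PEC against HN by edgeR, and their difference from the genes above was not tested. Slc5a8 averaged 44.8 ± 0.626 FPKM across Control, 16.0 ± 1.96 across HN and 14.1 ± 4.53 across PEC (SD, n = 3), with every Control library above every other. It fell in HN (log2 fold change -2.02, edgeR adjusted p = 4.77e-05) and was lower in PEC than in Control (log2 fold change -1.98, edgeR adjusted p = 6.17e-05). Between PEC and HN Slc5a8 had a log2 fold change of 0.04 (edgeR adjusted p = 0.893), which turned to -0.17 with library totals, to -0.26 without PEC replicate 2, and to -0.004 and -0.02 without HN replicates 4 and 8, to -0.001 by limma on log2 CPM, and with GC content and length removed it was called higher (0.69). Slc5a12 had 35.1, 39.2 and 39.99 FPKM across Control, 30.3, 21.9 and 23.4 across HN, and 6.14, 19.4 and 5.29 across PEC, values chosen for display after they were seen. PEC replicate 2 stood apart from the other 2 PEC libraries, and all PEC libraries lay below HN, which lay below Control. Slc5a12 was not called in HN against Control, with a log2 fold change of -1.13 (edgeR adjusted p = 0.065), but was without PEC replicate 2 (-1.12) or PEC replicate 3 (-1.13). Slc5a12 was also called lower there by DESeq2 (-1.11), with only the groups compared (-1.09) and by limma on log2 CPM, both with GC content and length removed (-1.38) and with nothing removed (-1.14). In PEC against HN it had a log2 fold change of -1.08 (edgeR adjusted p = 0.0778), and without PEC replicate 2 it was called lower at -1.93, as it was by DESeq2 (-1.08), with library totals (-1.29) and by limma on log2 CPM with nothing removed (-1.32). Slc5a12 was called lower in PEC against Control (log2 fold change -2.21, edgeR adjusted p = 0.00331). Without PEC replicate 2 this fall was larger, since the values of -1.12 and -1.93 given above add up within that fit. Slc23a1, the ascorbate carrier, averaged 60.5 ± 2.76 FPKM across Control, 33.5 ± 0.726 across HN and 37.7 ± 4.74 across PEC. It fell in HN (log2 fold change -1.39, edgeR adjusted p = 8.09e-06), was lower in PEC than in Control (log2 fold change -0.998, edgeR adjusted p = 5.16e-05), and in PEC against HN had a log2 fold change of 0.39 (edgeR adjusted p = 0.0109), short of the fold threshold.

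Protein uptake rests on megalin (Lrp2) and cubilin (Cubn), on Amn, which anchors cubilin in the membrane, and on the clathrin adaptor Dab2, and the folate receptor Folr1 takes up filtered folate. All 5 fell in HN and were lower in PEC than in Control, and in PEC against HN the 2 large receptors rose and the other 3 genes were not called. Lrp2 had 78.3, 89.5 and 97.8 FPKM across Control, 36.4, 31.1 and 36.2 across HN, and 52.5, 57.3 and 34.4 across PEC. Control lay above both other groups, and PEC replicate 3 fell within the HN range while PEC replicates 1 and 2 lay above it. For Lrp2 the log2 fold change was -1.89 (standard error 0.193, edgeR adjusted p = 6.39e-05) in HN against Control, 0.69 (standard error 0.188, edgeR adjusted p = 0.0177) in PEC against HN, and -1.20 (standard error 0.19, edgeR adjusted p = 0.000827) in PEC against Control. The rise in PEC was not called without HN replicate 8 (0.61), PEC replicate 1 (0.62) or PEC replicate 2 (0.54), nor with library totals (0.49). Cubn had 16.2, 19.4 and 23.1 FPKM across Control, 7.70, 8.14 and 9.74 across HN, and 14.2, 17.7 and 11.5 across PEC. HN lay below all PEC and Control libraries, and PEC replicate 2 passed the lowest Control library. For Cubn the change was -1.74 (standard error 0.188, edgeR adjusted p = 8.91e-05) in HN against Control, 0.98 (standard error 0.185, edgeR adjusted p = 0.00305) in PEC against HN, and -0.76 (standard error 0.184, edgeR adjusted p = 0.00825) in PEC against Control, where the call was lost with library totals (-0.40) and with GC content and length removed (-0.48). Amn had means of 52.8 ± 0.717, 37.4 ± 2.65 and 22.2 ± 3.79 FPKM in Control, HN and PEC (SD, n = 3), and its groups did not overlap. It fell in HN (log2 fold change -1.03, edgeR adjusted p = 0.000168), though not with library totals (-0.47), and in PEC against HN had a log2 fold change of -0.53 (edgeR adjusted p = 0.00862), short of the fold threshold, though it was called lower without PEC replicate 1 (-0.64) and with library totals (-0.73). Dab2, at 36.7 ± 6.33, 32.0 ± 2.15 and 24.5 ± 4.83 FPKM in the same order, had the smallest fall of the called genes in HN (log2 fold change -0.73, edgeR adjusted p = 0.00616), and its HN and Control libraries overlapped in FPKM. With library totals Dab2 was not called in HN against Control (-0.17) or in PEC against Control (-0.54). In PEC against HN Dab2 had a log2 fold change of -0.17 (edgeR adjusted p = 0.447), which turned to 0.15 with GC content and length removed. Folr1 went from 71.0 ± 3.99 in Control to 39.1 ± 0.217 in HN and 43.5 ± 1.38 FPKM in PEC, with a log2 fold change of -1.39 (edgeR adjusted p = 2.05e-06) in HN against Control. In PEC against HN it had a log2 fold change of 0.37 (edgeR adjusted p = 0.0024), which turned to -0.02 with GC content and length removed.

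The brush border enzymes Ggt1 (which splits glutathione), Anpep and Dpep1 (an aminopeptidase and a dipeptidase) and the meprin subunits Mep1a and Mep1b work on the urine side of the membrane. All 5 fell in HN, with a median log2 fold change of -1.70, 4 rose in PEC against HN, with a median of 0.92, and 3 were lower in PEC than in Control. Mep1a had 417, 489.8 and 508 FPKM across Control, 183, 198 and 190.2 across HN, and 211, 275 and 200.2 across PEC. The groups did not overlap, but PEC replicate 3 lay close to the highest HN library. For Mep1a the change was -1.84 (standard error 0.141, edgeR adjusted p = 1.28e-05) in HN against Control, 0.48 (standard error 0.136, edgeR adjusted p = 0.0207) in PEC against HN, and -1.36 (standard error 0.139, edgeR adjusted p = 7.16e-05) in PEC against Control. It missed the fold threshold in PEC against HN, and passed it without PEC replicate 3 (0.60). Mep1b had 49.8, 65.8 and 79.1 FPKM across Control, 11.1, 13.4 and 16.97 across HN, and 28.8, 39.5 and 39.1 across PEC. The groups were separate, with PEC between HN and Control. For Mep1b the change was -2.77 (standard error 0.222, edgeR adjusted p = 1.67e-05) in HN against Control, the furthest fall of the list, 1.59 (standard error 0.213, edgeR adjusted p = 0.000501) in PEC against HN, and -1.18 (standard error 0.211, edgeR adjusted p = 0.00165) in PEC against Control. Ggt1 averaged 190.5 ± 18.4 FPKM across Control, 85.3 ± 5.91 across HN and 165 ± 24.4 across PEC (SD, n = 3), and it fell in HN (log2 fold change -1.70, edgeR adjusted p = 1.39e-05) and rose in PEC against HN (log2 fold change 1.17, edgeR adjusted p = 0.000203). In PEC against Control Ggt1 had a log2 fold change of -0.53 (edgeR adjusted p = 0.00808), called lower without Control replicate 4 (-0.59) or PEC replicate 2 (-0.66), or with GC content and length removed (-1.04). Anpep (log2 fold change -1.32, edgeR adjusted p = 0.000758) and Dpep1 (log2 fold change -1.59, edgeR adjusted p = 3.99e-05) fell in HN. Both rose in PEC against HN (0.92 and 0.72), the rise of Dpep1 being lost with library totals (0.52) and with GC content and length removed (0.47). In PEC against Control Anpep (log2 fold change -0.40, edgeR adjusted p = 0.132) was not called, but was lower with GC content and length removed (-0.70), and Dpep1 (log2 fold change -0.87, edgeR adjusted p = 0.00127) was called lower, but not with library totals (-0.51).

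The last 4 genes are the scaffold Pdzk1, which holds carriers in the membrane, the actin bundler Vil1 of the microvilli, the nuclear receptor Hnf4a, and the inositol enzyme Miox. All 4 fell in HN and rose in PEC against HN, and 2 of them, Pdzk1 and Hnf4a, were lower in PEC than in Control. Hnf4a had 188, 178 and 158 FPKM across Control, 82.8, 82.7 and 91.7 across HN, and 107, 119.8 and 111 across PEC. The 3 groups stood apart in the order HN, PEC, Control. For Hnf4a the log2 fold change was -1.56 (standard error 0.0879, edgeR adjusted p = 3.27e-06) in HN against Control, 0.61 (standard error 0.0862, edgeR adjusted p = 0.000661) in PEC against HN, and -0.95 (standard error 0.0866, edgeR adjusted p = 4.22e-05) in PEC against Control. The rise in PEC lay just past the fold threshold and was not called without HN replicate 8 (0.57) or PEC replicate 2 (0.56), nor with library totals (0.41) or without a filter on low counts (0.58). Miox had 665, 766 and 752 FPKM across Control, 212, 191 and 231 across HN, and 819, 792 and 473 across PEC. HN lay below every other library, PEC replicates 1 and 2 lay above all Control libraries, and PEC replicate 3 lay below them. Scaled by TMM, all 3 PEC libraries of Miox (784, 775 and 452) lay below every Control library (813, 921 and 968). For Miox the change was -2.32 (standard error 0.202, edgeR adjusted p = 2.55e-05) in HN against Control, 1.94 (standard error 0.199, edgeR adjusted p = 0.000142) in PEC against HN, and -0.39 (standard error 0.193, edgeR adjusted p = 0.132) in PEC against Control, where it was not called, but was with GC content and length removed (-1.01). Pdzk1 averaged 269 ± 32.8 FPKM across Control, 116 ± 5.05 across HN and 166 ± 34.8 across PEC (SD, n = 3), with a log2 fold change of -1.75 (edgeR adjusted p = 3.81e-05) in HN against Control and a log2 fold change of 0.73 (edgeR adjusted p = 0.00644) in PEC against HN. Vil1 averaged 49.7 ± 5.21, 34.9 ± 2.47 and 47.0 ± 5.22 FPKM in the same order, with a log2 fold change of -1.04 (edgeR adjusted p = 6.17e-05) and a log2 fold change of 0.65 (edgeR adjusted p = 0.00142). The rise of both in PEC was not called with library totals (0.53 for Pdzk1 and 0.45 for Vil1), nor was that of Vil1 with GC content and length removed (0.53). The fall of Vil1 in HN was not called with library totals (-0.49), and in PEC against Control Vil1 was not called, but was lower with GC content and length removed (-0.79).

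Summed over the 39 genes, the FPKM was 4745, 5073 and 5073 across Control, 2082, 2109 and 2171 across HN, and 3571, 4002 and 2849 across PEC. The 3 groups did not overlap. The mean sum was 4964 ± 189 for Control, 2121 ± 45.6 for HN and 3474 ± 583 for PEC (SD, n = 3), so HN held 0.427 and PEC 0.7 of the Control mean. Scaled by TMM, the same ratios were 0.290 and 0.546, and as the median over the 39 genes of the FPKM ratio to the Control mean they were 0.514 and 0.673. A test on these sums by exact permutation could not go below a two-sided p of 0.1 with 3 libraries against 3, and none is given. The spread among replicates differed by group, with a median coefficient of variation over the 39 genes of 10.1% for Control, 5.71% for HN and 16.9% for PEC. Among the PEC libraries, replicate 2 was the highest for 27 of the 39 genes and replicate 3 the lowest for 31. This order was not counted over all genes tested. Slc26a1 had the highest coefficient of variation in HN, 50.2%, and Slc5a12 in PEC, 77.0%. The counts without PEC replicate 3, and the range with any 1 library left out, are given below. The cause of this order was not tested.

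A list of 64 other transport and brush border genes of the pathway, 63 of them in the table and all 63 tested, was counted beside the 39. In HN against Control 39 of the 63 were called lower and 4 higher, against 14.7 and 17.7% of all genes tested. The median log2 fold change of the 63 was -0.97. In PEC against HN 20 were higher and 4 lower, against 13.4 and 15.3%, with a median of 0.40. In PEC against Control 28 were lower and 3 higher, against 17.4 and 18.9%, with a median of -0.54. With library totals 25 were lower and 7 higher in HN against Control, against 6.01 and 36.0% of all genes tested. In PEC against HN 14 were then higher and 8 lower, against 9.12 and 21.6%. In PEC against Control 18 were then lower and 8 higher, against 9.16 and 30.0%. Slc7a13, an amino acid carrier of the late proximal tubule, had 324, 359 and 412 FPKM across Control, 63.6, 73.5 and 86.5 across HN, and 69.7, 124 and 63.2 across PEC. All PEC and HN libraries lay far below Control and overlapped with each other. For Slc7a13 the change was -2.83 (standard error 0.257, edgeR adjusted p = 3.20e-05) in HN against Control, 0.42 (edgeR adjusted p = 0.203) in PEC against HN and -2.42 (edgeR adjusted p = 8.32e-05) in PEC against Control. Slc16a4, of the monocarboxylate carrier family, had 23.6, 21.03 and 26.8 FPKM across Control, 5.13, 5.64 and 6.32 across HN, and 6.07, 11.5 and 6.37 across PEC, and it fell in HN (log2 fold change -2.60, edgeR adjusted p = 3.93e-05). Slc6a12, the betaine carrier, stood at 1.17, 2.04 and 0.63 FPKM across Control, 0.4, 0.31 and 0.28 across HN, and 0.75, 0.35 and 1.07 across PEC, and it fell in HN as well (log2 fold change -2.46, edgeR adjusted p = 0.00337). For both, every HN library lay below every Control library. The 4 called higher in HN were Slc34a2, Slc7a12, Naalad2 and Ggt5, the last (log2 fold change 0.70, edgeR adjusted p = 0.0232) only as long as no library was left out among Control replicates 2 (0.66) and 5 (0.55) and HN replicate 4 (0.60), and not with GC content and length removed (0.42). The 4 lower in PEC against HN were Slc34a2, Naalad2, Mme and Ppara, and the 3 higher in PEC against Control were Slc34a2, Slc20a1 and Ggt5, with Ggt5, Slc20a1, Mme and Ppara chosen for naming after their values were seen. In PEC against Control Slc20a1 (0.71) lost the call with GC content and length removed (0.49). Ggt5 (0.78) lost it there by limma on log2(FPKM + 1) (0.52). Slc34a2, a phosphate cotransporter best known from lung and gut, had 0.41, 0.61 and 0.61 FPKM across Control, 13.1, 13.1 and 16.7 across HN, and 7.63, 9.14 and 7.26 across PEC. All HN and PEC libraries lay far above Control, and PEC lay below HN. For Slc34a2 the change was 4.17 (standard error 0.196, edgeR adjusted p = 1.72e-06) in HN against Control and -0.62 (edgeR adjusted p = 0.0195) in PEC against HN, a call lost without HN replicate 12 (-0.51), PEC replicate 1 (-0.59) or PEC replicate 3 (-0.53), and with GC content and length removed (-0.48). Slc7a12, an amino acid carrier, had 2.35, 6.28 and 0.82 FPKM across Control, 36.1, 25.2 and 38.6 across HN, and 8.97, 10.2 and 11.9 across PEC, with a log2 fold change of 2.88 (edgeR adjusted p = 0.00324) in HN against Control and a log2 fold change of -1.47 (edgeR adjusted p = 0.0607) in PEC against HN, where it was called lower without Control replicate 4 or 5 (-1.47 for each), by DESeq2 (-1.47), with only the groups compared (-1.46) and with library totals (-1.66). Naalad2, a peptidase, had 0.61, 0.57 and 0.7 FPKM across Control, 2.15, 1.70 and 1.92 across HN, and 0.63, 0.51 and 0.69 across PEC, and it rose in HN (log2 fold change 1.08, edgeR adjusted p = 0.00161) and fell in PEC against HN (log2 fold change -1.43, edgeR adjusted p = 0.000511). The HN libraries lay above all others for Slc7a12 and for Naalad2. In PEC against Control Slc7a12 had a log2 fold change of 1.42 (edgeR adjusted p = 0.0612) and was not called. It was called higher there by DESeq2 (1.44), with library totals (1.75) and without Control replicate 4 (2.37). By limma on log2 CPM it was called higher as well, with GC content and length removed (2.11) and with nothing removed (1.83).

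Markers of other cells and of tubule injury moved in the same libraries, and their part in the result was not tested. Of 12 tubule injury genes, 12 were called higher in HN than in Control and 12 in PEC than in Control, and in PEC against HN 3 (Vcam1, Sox9 and Prom1) were lower and 0 higher by edgeR, with 0 higher by DESeq2 and at an unadjusted p as well. Their summed FPKM was 600.0, 631 and 469.8 across Control, 13017, 11789 and 11919 across HN and 9264, 9422 and 7769 across PEC, with Spp1 the most abundant. Of 15 other proximal tubule markers, 1 of which (Slc4a4) is also among the 39, 15 were lower in HN than in Control, 12 were higher and 1 lower in PEC than in HN, and 14 were lower in PEC than in Control. Their sum, with Kap the most abundant, was 32645, 31639.9 and 45118 across Control, 5178, 7676 and 6421 across HN and 16865, 22754 and 14731 across PEC. Kidney markers were thus present at high levels in every library. The sum of 8 macrophage genes, led by Cd74, was 111, 128 and 109.6 across Control, 1909.5, 2064 and 1766 across HN and 769, 927 and 1329 across PEC, with 8 higher in HN than in Control and 6 lower in PEC than in HN. For 8 fibroblast and pericyte genes, led by Col3a1, it was 47.3, 46.3 and 42.0 across Control, 360.2, 374 and 348 across HN and 179, 197 and 167 across PEC, with 8 higher in HN and 6 lower in PEC against HN. The 8 lymphocyte genes, led by Cd4, summed to 0.96, 1.23 and 1.35 across Control, 7.77, 13.0 and 9.50 across HN and 4.8, 5.56 and 5.66 across PEC, with 6 higher in HN and 2 lower in PEC against HN. With library totals, PEC against HN gave 5 injury and 4 lymphocyte genes lower, and 8 other proximal tubule markers higher and 1 lower. In PEC against Control 11 of these markers were then lower. With GC content and length removed, PEC against HN gave 1 injury gene and 4 fibroblast and pericyte genes lower. The other proximal tubule markers then gave 11 higher and 0 lower there. In PEC against Control 10 injury genes were then higher and 13 of these markers lower.

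The summed levels of other nephron segments moved less than those of the proximal tubule markers, and their counts of called genes change with the scaling. The median log2 fold change in HN against Control (edgeR, TMM) was -2.28 for the other proximal tubule markers and -0.94 for thick limb. It was -0.67 for distal convoluted tubule, -1.01 for principal cells and -0.70 for intercalated cells. Egf fell furthest in the thick limb list (-3.52) and Pvalb in the distal convoluted tubule list (-5.73). The 7 thick limb genes, led by Umod, summed to 1292, 1449.6 and 1329 FPKM across Control, 1644, 1459.6 and 1625 across HN and 1518, 1522 and 1459.6 across PEC. In HN 4 of them were lower and 0 higher with TMM (edgeR, and 0 by DESeq2 and at an unadjusted p), but 3 were lower and 3 higher with library totals, and in PEC against HN 2 were higher. The 5 distal convoluted tubule genes, led by Calb1, summed to 125, 116 and 173 across Control, 119.8, 116 and 144 across HN and 114, 149 and 104 across PEC, with 3 lower and 1 higher in HN and 3 higher in PEC against HN. For the 7 principal cell genes, led by Aqp2, the sums were 361, 405 and 189 across Control, 214, 151 and 217 across HN and 231, 219 and 293 across PEC, with 4 lower in HN and 4 higher in PEC against HN. The 6 intercalated cell genes, led by Atp6v1g3, summed to 74.1, 75.6 and 66.7 across Control, 67.7, 67.2 and 72.3 across HN and 106, 98.6 and 104 across PEC, with 4 lower in HN and 5 higher in PEC against HN. Outside the tubule, the 6 podocyte genes, led by Podxl, summed to 64.5, 65.6 and 60.4 across Control, 96.6, 88.7 and 83.6 across HN and 91.3, 87.7 and 82.5 across PEC, with 1 higher in HN with TMM and 4 with library totals. For 7 endothelial genes, led by Plvap, the sums were 105, 118 and 106 across Control, 133, 133 and 134 across HN and 92.6, 104 and 126 across PEC, with 2 lower in HN and 1 higher in PEC against HN. The 5 adipocyte genes, led by Adipoq, summed to 4.33, 0.13 and 0.05 across Control, 0.27, 0.39 and 11.9 across HN and 0.22, 0.16 and 118 across PEC, so PEC replicate 3, the library lowest for 31 of the 39 genes, stood highest here. The extraction text of all labels mentions an adipose type, while the tissue is given as kidney, and the source of this signal was not tested. With library totals, 2 principal cell, 1 intercalated cell and 1 endothelial gene were called higher in HN than in Control, which they were not with TMM. Called lower in HN by edgeR were then 3 principal cell, 1 intercalated cell and 0 endothelial genes. In PEC against HN 3 principal cell, 3 intercalated cell and 0 endothelial genes were then higher, and 1 endothelial gene was lower. Of the adipocyte genes, 4 were tested and edgeR called 0 in each comparison, as did DESeq2 and edgeR at an unadjusted p under 0.05. Without PEC replicate 3, 37 of the 39 genes were lower in HN against Control, against 14.6% of all genes tested, and 23 were lower in PEC against Control, against 15.5%. Then 24 were higher in PEC against HN, against 12.3%, and 0 lower (edgeR, and 0 lower at an unadjusted p), against 14.5%. No gene of the 12 lists was below 0.05 FPKM in all 9 libraries. A plot of the summed FPKM sets these lists beside the 39 genes.

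**Figure D4:**
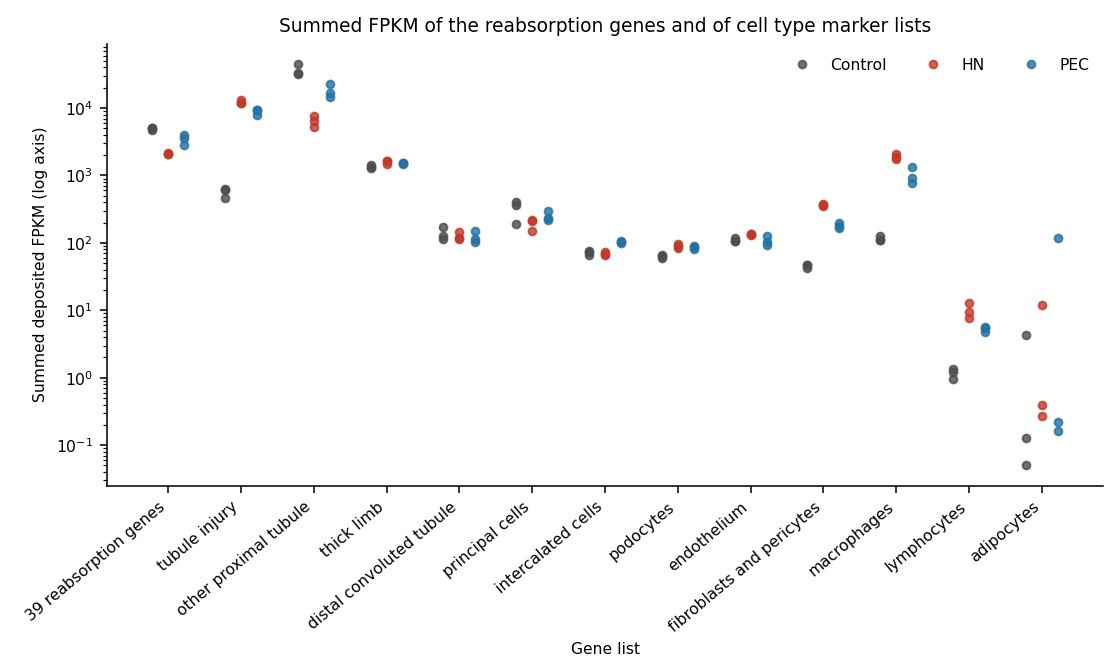
Summed FPKM of the 39 proximal tubule genes and of the 12 marker lists in each of the 9 libraries, on a log axis. FPKM divides by library totals, on which scale the thick limb, podocyte and endothelial sums of HN all lay above those of Control.

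Genes on the opposite strand overlap some of the 39, and whether reads were assigned by strand is not given in the sources used here. Of protein-coding genes, Prepl overlaps Slc3a1 by 767 bases (a mean of 7417 against 34576 counts), and Sacm1l overlaps Slc6a20b by 1801 bases (5463 against 13285). BC017158 overlaps Slc5a2 by 1052 bases (2578 against 13091), and Paip2 overlaps Slc23a1 by 2584 bases (6527 against 11550). Idua spans 5692 bases of Slc26a1 (672 against 5726), Anapc15 7074 bases of Folr1 (891 against 9564), 4430402I18Rik 20919 bases of Slc1a1 (239 against 12217), and Gpr89 2646 bases of Pdzk1 (8749 against 53032). Shorter overlaps of this kind are Pfn3 with Slc34a1 (545 bases), Oxa1l with Slc7a7 (232 bases, 4912 against 8750 counts), Cd160 with Pdzk1 (68 bases) and Usp37 with Vil1 (49 bases, 1462 against 12585). Slc13a2 shares 8571 bases with its antisense transcript Slc13a2os, which had a mean of 424 counts against 2925 for Slc13a2. Hnf4a shares 34913 bases with its antisense transcript Hnf4aos (260 against 48541 counts). On the same strand, the protein-coding gene Gm20388 overlaps Dpep1 by 15571 bases (0 against 5422 counts). Also on the same strand, Gm20706 overlaps Slc13a1 by 2023 bases (13 against 45583) and Gm44974 overlaps Anpep by 1279 bases (8.67 against 7544). Their part in the values was not tested.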

How the data were processed

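Kidney poly(A) RNA was sequenced in 9 libraries, 3 each from Control, HN and PEC mice. The deposited table gives raw counts per gene, as the authors made them. It also gives FPKM by the authors, per kilobase and scaled by the reads counted on genes, not rescaled to a common sum. The submitters' processing notes name Bowtie 0.12.2 and the builds mm8 and mm9, while 51991 of 55144 genes matched in GENCODE release M 21 had identical GRCm38 coordinates. The counting program, strand setting and handling of multi-mapped reads are not given in the sources used here. Totals were 57714111 to 81069646 counts. Counts of all genes were fitted together in edgeR 4.0.16 (R 4.3.3; TMM, filterByExpr, quasi-likelihood test, Benjamini-Hochberg over 21392 genes), and calls needed a fold change of 1.5 or more and a two-sided adjusted p of 0.05 or less. Alternatives were DESeq2 1.42.0, RLE factors, library totals, no mitochondrial or ribosomal genes, no filter, limma 3.58.1 on log2 FPKM with a pseudocount of 1 or 0.1, an unadjusted p, a fold of 2, only the groups compared, GC content and length removed in limma on log2 CPM (with TMM), and the same limma fit with nothing removed, added after the data were seen, and each library left out; the code was tested on simulated data. Tables were made with Python 3.11.15 and pandas 2.3.3. Values in all libraries are given for the most abundant and the most changed gene in HN of each role, each gene higher in HN, the 5 largest changes in PEC against HN, and Slc5a1, Slc5a2, Lrp2, Cubn and Hnf4a, 17 genes in all. From the list of 64 other pathway genes, they are given beside it for 3 called lower and 3 called higher in HN. Other genes of that list were named after their values were seen. The 39 genes, the other pathway genes and the 12 marker lists (tubule injury, other proximal tubule, thick limb, distal convoluted tubule, principal cells, intercalated cells, podocytes, endothelium, fibroblasts and pericytes, macrophages, lymphocytes, adipocytes) were chosen with earlier results of these data known.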

Additional observations from a re-analysis of the deposited data

How the results depend on the processing

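The cause of each shift below was not tested. With GC content and length removed the majority of calls over all genes turned from higher to lower in the 2 comparisons with Control and from lower to higher in PEC against HN. That setting also moved the median log2 fold change of all genes to -0.21 in HN against Control, 0.02 in PEC against HN and -0.14 in PEC against Control. With nothing removed in the same limma fit these medians were 0.01, -0.04 and 0.04. That fit, added after the data were seen, kept the majorities of edgeR. Of the 39 it called 37 lower in HN against Control, against 15.1% of all genes tested. In PEC against HN it called 22 higher and 2 lower, against 14.2 and 16.4%, and in PEC against Control 26 lower, against 18.2%. Library totals gave, over all genes, 1286 lower and 7708 higher in HN against Control and 1960 lower and 6415 higher in PEC against Control, and, of the 39 genes in PEC against HN, 3 lower and 14 higher, against 21.6 and 9.12% of all genes tested. limma on log2(FPKM + 1) gave 1024 lower over all genes in HN against Control, 1485 lower in PEC against Control and 1356 higher in PEC against HN, where 3 of the 39 were lower and 14 higher. With a pseudocount of 0.1 these were 1191, 1919, 1683, 3 and 14, with 5906 higher in HN against Control, and with no filter 991, 1429, 1400, 3 and 14. Of all genes tested in PEC against HN, 21.9, 27.4 and 10.4% were lower and 8.74, 10.9 and 4.34% higher in these fits, in that order. With GC content and length removed, 4813 genes were lower in HN against Control, and that limma fit called 0 of the 39 lower in PEC against HN, against 2 with nothing removed, 1 by edgeR, 2 by DESeq2 and 2 by edgeR at an unadjusted p. At a fold of 2, 1902 of the 21392 genes tested were lower in HN against Control and 2089 in PEC against Control. In PEC against HN 1823 were lower and 1771 higher. Of the 39, edgeR then called 0 higher in HN against Control (1 by DESeq2 and 1 at an unadjusted p, both at a fold of 1.5). In PEC against HN it called 11 higher and 0 lower, and in PEC against Control 16 lower and 0 higher (again 1 and 1). For all genes higher in the 2 comparisons with Control, only the shares at a fold of 1.5 are given here, 17.7 and 18.9%. Leaving out 1 library gave 36 to 37 of the 39 lower in HN against Control, against 12.5 to 14.6% of all genes tested. In PEC against HN it gave 19 to 24 higher, against 10.5 to 13%, and 0 to 2 lower, against 12.6 to 15.3%. In PEC against Control 23 to 31 were lower, against 15.5 to 16.7%. The summed FPKM of HN over Control, 0.427, became 0.290 with TMM and 0.514 as the median ratio, and that of PEC, 0.7, became 0.546 with TMM. The word CAAAGTCCA lay in 1 promoter, not 2, when only the bases before the start were searched. Of the values with a library left out, 349, 336 and 326 kept their side of the threshold in the comparisons HN with Control, PEC with HN and PEC with Control, 0, 10 and 11 lost a call and 2, 5 and 14 gained; under the other settings 438, 403 and 408 kept it, 26, 52 and 50 lost a call and 4, 13 and 10 gained, and the values that changed sign, all of genes not called, stand with their genes above. No paired analysis was possible because the groups share at most 1 replicate number. The least abundant of the 39 genes had a mean of 8.86 FPKM, and each group had 3 libraries.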

Other observations

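Some genes outside the 39 were singled out after their values were seen. Cldn2, which forms the cation-permeable tight junction of the proximal tubule, had 161, 171 and 164 FPKM across Control, 143, 127 and 130.0 across HN, and 106, 120.3 and 0.01 across PEC. PEC replicate 3 held 2 counts of Cldn2, against 29061 to 46777 in the other libraries, and Cldn2 was not called in any comparison by edgeR over all 9 libraries. Without PEC replicate 3 it was called lower in HN against Control (-0.85) and in PEC against Control (-0.84), and its value in PEC against HN turned from -0.61 to 0.001. With only the groups compared Cldn2 was also called lower in HN against Control (-0.81). By a rule set after that gene was seen, at least 1 FPKM in the other 8 libraries and at most 5% of their lowest value in the library itself, the Control libraries had 2, 2 and 1 such genes, the HN libraries 0, 0 and 1, and the PEC libraries 4, 4 and 5, with 0 of the 39 among them.

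Ppara, the nuclear receptor of fatty acid oxidation, had 13.1, 15.6 and 14.7 FPKM across Control, 11.1, 6.99 and 5.95 across HN, and 1.74, 2.46 and 1.60 across PEC. The groups did not overlap, and PEC lay below HN. It fell in HN against Control (log2 fold change -1.38, edgeR adjusted p = 0.00211) and in PEC against HN (log2 fold change -1.84, edgeR adjusted p = 0.000664). The carbonic anhydrases Car4 and Car14, which serve bicarbonate recovery, rose in PEC against HN, where Slc4a4 fell, and the difference was not tested. The fall of Slc4a4 was not called with GC content and length removed (-0.22). Car4 had 52.4, 51.3 and 67.2 FPKM across Control, 17.6, 16.4 and 20.5 across HN, and 56.9, 75.6 and 50.9 across PEC, with a log2 fold change of -2.19 (edgeR adjusted p = 2.01e-05) in HN against Control and a log2 fold change of 1.97 (edgeR adjusted p = 8.49e-05) in PEC against HN. Car14 had 19.5, 32.7 and 25.8 FPKM across Control, 9.76, 6.95 and 8.56 across HN, and 22.7, 27.0 and 20.8 across PEC, with a log2 fold change of -2.16 (edgeR adjusted p = 4.75e-05) and a log2 fold change of 1.69 (edgeR adjusted p = 0.000308). For both, the HN libraries lay below all others, and PEC and Control overlapped. With GC content and length removed Car4 (-0.69) and Car14 (-0.865) were called lower in PEC against Control, where edgeR did not call them (-0.22 and -0.46). Mme, the brush border peptidase neprilysin, had 12.5, 15.7 and 12.3 FPKM across Control, 15.3, 14.9 and 17.1 across HN, and 7.13, 7.42 and 6.93 across PEC. It was not called in HN against Control (log2 fold change -0.31, edgeR adjusted p = 0.0296) and fell in PEC against HN (log2 fold change -0.92, edgeR adjusted p = 0.000161), while Anpep, Dpep1 and Mep1b rose there, and the difference was not tested. With GC content and length removed Mme in PEC against HN was no longer called and turned to 0.04, and with library totals its value in HN against Control turned to 0.25.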
